A study of Drosophila melanogaster with 9 samples.

Results

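The mitochondrial ribosomal protein genes examined here are the fly genes whose FlyBase symbol begins with mRpL (large subunit) or mRpS (small subunit) and whose mean abundance over the 9 samples was above 1 CPM (a read count divided by the total of its library and put on a common scale). Of 73 such symbols in the name table, 71 had an identifier in the count files, and mRpS5 and mRpS34 were not analysed here. In all, 70 genes passed the abundance limit, 46 with an mRpL and 24 with an mRpS symbol, out of 7406 genes that passed it and 17559 identifiers listed. The member closest to the limit was mRpS6 with a mean of 11.5 CPM, and the single gene left out, mRpL53, was listed at 0 in all 9 samples. Exons of mRpL53 share 829 bases with CG33155 on the same strand and 33 with AGO1 on the opposite strand. Its counts of 0 therefore do not show that it was not expressed.

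The samples were S2R+ cells, an adherent, macrophage-like line derived from Drosophila embryos, in which Hrb98DE, an RNA-binding protein of the hnRNP family, was depleted by RNA interference. KD1 cells received a first double-stranded RNA (dsRNA) against Hrb98DE, KD2 cells a second one, and lacZ cells a dsRNA against a bacterial gene that flies do not have. Each of the 3 groups had 3 samples. The study's methods name more biological replicates per dsRNA than these 3, and its supplementary figure of the knock-downs gives 3. All groups took up dsRNA in 6 h of serum starvation and were harvested on day 5 after the first treatment. The comparisons ask which transcripts differ in abundance when Hrb98DE is low, and whether the 2 dsRNAs give the same picture.

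Mitochondria carry their own ribosomes, which translate the few proteins encoded by mitochondrial DNA, all of them parts of the respiratory chain and the ATP synthase. The ribosomal RNAs, mt:lrRNA and mt:srRNA, are transcribed inside the organelle, whereas every protein of the mitochondrial ribosome of the fly is encoded in the nucleus, made in the cytosol and imported. Some of these proteins descend from the bacterial ribosome, and others were added during the evolution of mitochondria.

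The libraries held 13040608 to 15931035 counts. Hrb98DE averaged 978 normalised read counts in KD1 cells and 1077 in KD2 cells, against 6931 in lacZ cells, where a normalised read count is the count divided by the size factor of the library. Its paralog Hrb87F was also lower, with means of 2564 in KD1, 1436 in KD2 and 6155 in lacZ cells, so the 2 dsRNAs did not leave it at the same level. Of 7 blood cell (hemocyte) marker genes above the abundance limit, 4 rose in each knock-down by DESeq2 (Hml, Col4a1, vkg and Pxn), with Hml, which codes for a clotting protein, at log2 fold changes of 0.71 in KD1 and 0.73 in KD2, and Pxn at 0.18 and 0.29. The others went differently: the receptor gene eater had -0.31 in KD1 and -0.34 in KD2 (DESeq2 adjusted p = 0.103 and 0.0600, edgeR adjusted p = 0.0402 and 0.0222), with all knock-down samples below all lacZ samples, crq had -0.096 and -0.15, and srp -0.032 and 0.12. NimC1, a hemocyte receptor, was close to 0 in all samples (0.069 to 0.31 CPM). Of the neuron, muscle and germ line markers that could be tested, 0 passed by DESeq2 in either knock-down, and by edgeR the neuronal gene elav passed in KD1 (log2 fold change -0.22, edgeR adjusted p = 0.0269, DESeq2 adjusted p = 0.0751). The part of the hemocyte markers in the fold changes reported here was not tested. RNA was taken from whole cultures, so a change in the make-up of the culture and a change in RNA per cell cannot be told apart.

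The transcripts were moderately abundant. Per kilobase of exon, the median level of the 70 genes was 652 normalised read counts, against 308 over all genes tested, 1438 over 61 nuclear genes of the respiratory chain and 33490 over 80 cytosolic ribosomal protein genes. mRpL14, a large subunit protein with a bacterial homologue, was the highest at 1870 per kilobase. mRpL45, a protein of the large subunit without a bacterial homologue, followed at 1498, and mRpS22, a small subunit protein of the same kind, at 1284. The lowest levels per kilobase were those of mRpL11, a homologue of a bacterial protein of the ribosomal stalk base, at 244, and of mRpS6 at 271. Within a group the replicates of a gene differed little, with a median coefficient of variation of 4.66%. Transcripts with mRpL and mRpS symbols kept a steady proportion, since the summed CPM of the mRpL genes was 1.78 to 1.84 times that of the mRpS genes in every sample.

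**Figure D1:**
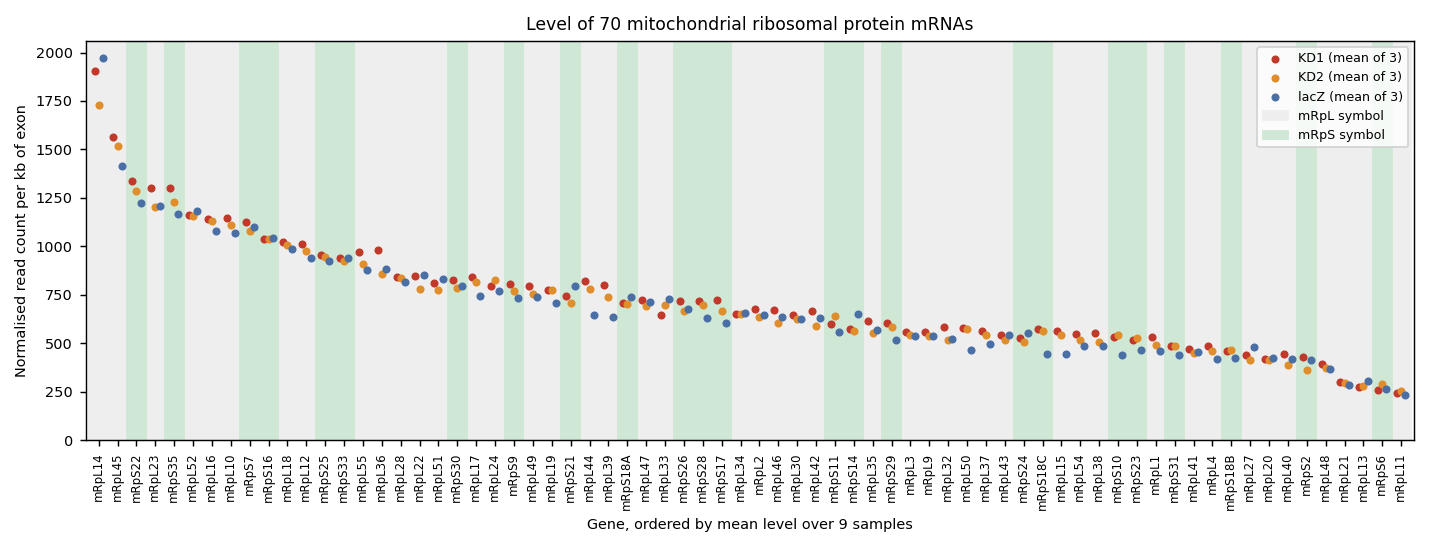
Normalised read count per kilobase of exon (y axis) for the 70 genes (x axis, ordered by mean level), with 1 point per group mean of 3 samples; shading marks mRpL and mRpS symbols. Levels run from 1870 for mRpL14 to 244 for mRpL11, and the points of the 3 groups lie close together for most genes.

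In KD1 cells the mitochondrial ribosomal protein transcripts were shifted slightly upward, and in KD2 cells the shift was smaller and turned negative (-0.0058) when libraries were scaled by their totals, which put the median of all genes at -0.030. The median log2 fold change of the 70 genes was 0.085 in KD1 against lacZ, with 55 positive and 15 negative values, and 0.028 in KD2 against lacZ, with 40 positive and 30 negative values. The medians over all 7406 genes were 0.0003 and 0.0037. These changes were small: the 70 values ran from -0.18 to 0.38 in KD1 and from -0.21 to 0.35 in KD2, with a median standard error (SE) of 0.087 in each. The 95% interval stayed within 1.3-fold in either direction for 59 of the 70 genes in KD1 (84.3%, against 66.8% of all genes) and for 60 in KD2 (85.7%, against 65.8%).

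The genes that passed the test were mostly higher in the knock-downs. At a DESeq2 adjusted p under 0.05, 13 of the 70 genes (18.6%) rose and 0 fell in KD1 cells, while 9.71% of all genes tested rose and 11.5% fell. At an unadjusted p under 0.05, 18 rose and 0 fell in KD1 (15.1% and 16.6% of all genes), and 9 rose and 3 fell in KD2 (16.3% and 16.9%). For KD1, edgeR called 15 (21.4%) that rose and 0 that fell, where 11.4% of all genes rose and 12.7% fell. For KD2 it called 8 (11.4%) that rose, below the 13% of all genes, and 2 (2.86%) that fell, against 13.9%. At a DESeq2 adjusted p under 0.05, 6 genes (8.57%) rose and 1 fell in KD2 cells, while 11.3% of all genes rose and 12.3% fell. The share that rose was therefore close to that of all genes, and the share that fell was below that of all genes. Calls in both knock-downs were made for 6 genes (8.57%), all of which rose, where 7.91% of all genes rose and 9.06% fell in both. Past a 1.3-fold change as well, 1 gene rose in KD1 (2.24% of all genes rose and 5.13% fell by this rule) and 0 changed in KD2 (2.93% and 5.2%), where edgeR also gave 0. Both knock-downs were set against the same lacZ samples.

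The counts depended on single libraries. In KD1 the 13 calls became 4 without KD1 replicate 1, 6 without KD1 replicate 3, 7 without KD1 replicate 4, 8 without KD2 replicate 1 or KD2 replicate 4, and 5 without lacZ replicate 1 or lacZ replicate 3. In KD2 the 7 calls became 2 without KD2 replicate 4, 0 without lacZ replicate 1 and 3 without lacZ replicate 3. The share of all genes that rose fell as well in such fits. In KD1 it was 5.17% without KD1 replicate 1 (5.71% of the 70 genes) and 7.82% without KD1 replicate 3 (8.57%). It was 5.89% without KD1 replicate 4 (10.0%), 5.23% without lacZ replicate 1 (7.14%) and 5.43% without lacZ replicate 3 (7.14%). Without KD2 replicate 1 or 4 it was 9.06% or 8.37% (11.4% of the 70 genes each). In KD2 it was 7.29% without KD2 replicate 4 and 6.82% without lacZ replicate 3 (2.86% of the 70 genes each). Without lacZ replicate 1 it was 6.43%, and 0% of the 70 genes. The number of the 70 genes that fell in KD1 was 0 in each of these fits.

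**Figure D2:**
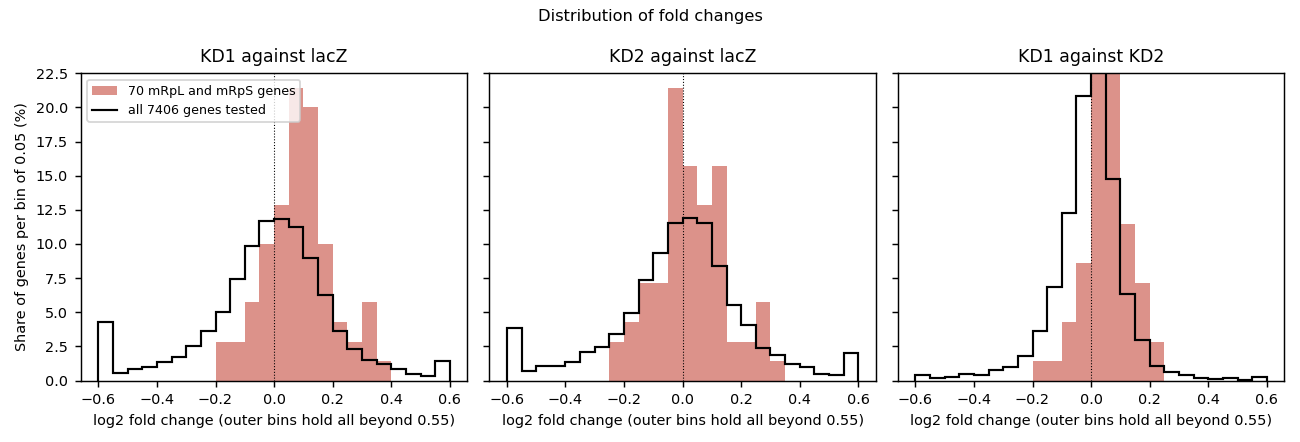
Share of genes (y axis, percent) by log2 fold change (x axis, bins of 0.05) for the 70 mRpL and mRpS genes (filled) and all 7406 genes tested (line), in KD1 against lacZ, KD2 against lacZ and KD1 against KD2. The 70 genes form a narrow peak to the right of 0 in KD1 (median 0.085), are centred nearer 0 in KD2 (median 0.028), and lie mostly above 0 in KD1 against KD2 (median 0.055).

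Read from the samples themselves, all KD1 values lay above all lacZ values for 24 genes (34.3%) and below them for 3 (4.29%), against 19.2% and 20.2% of all genes. For KD2 the counts were 15 above (21.4%) and 6 below (8.57%), against 18.6% and 19.5% of all genes. The 70 genes together took 0.305%, 0.303% and 0.291% of the counts in the KD1 samples, 0.283%, 0.289% and 0.289% in the KD2 samples, and 0.287%, 0.284% and 0.286% in the lacZ samples. The KD1 samples therefore lay above the other 6 by this measure, and the KD2 and lacZ samples overlapped.

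Transcript length moved with these medians. Exons of the 70 genes spanned a median of 783 bases (327 to 2078), against 2106 over all genes tested. Over the 3544 genes in that length range, the median log2 deviation of a sample from the mean of all samples was 0.028, 0.033 and -0.010 in KD1, -0.039, 0.0029 and -0.0057 in KD2, and 0.018, -0.015 and -0.0023 in lacZ. The same measure over the 70 genes was 0.084, 0.064 and 0.0038 in KD1, -0.045, -0.0086 and 0.0088 in KD2, and -0.031, -0.042 and -0.071 in lacZ, so the same 2 KD1 samples were the highest and the same KD2 sample the lowest of its group by both measures, while the lacZ samples were all below 0 for the 70 genes alone. With each sample corrected for exon length, 8 genes (11.4%) rose and 0 fell in KD1 (median 0.066), where 10.5% of all genes rose and 11.4% fell, so the share that rose was close to that of all genes. In KD2 8 rose (11.4%) and 1 fell (median 0.046), where 11.7% of all genes rose and 12.8% fell.

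**Figure D3:**
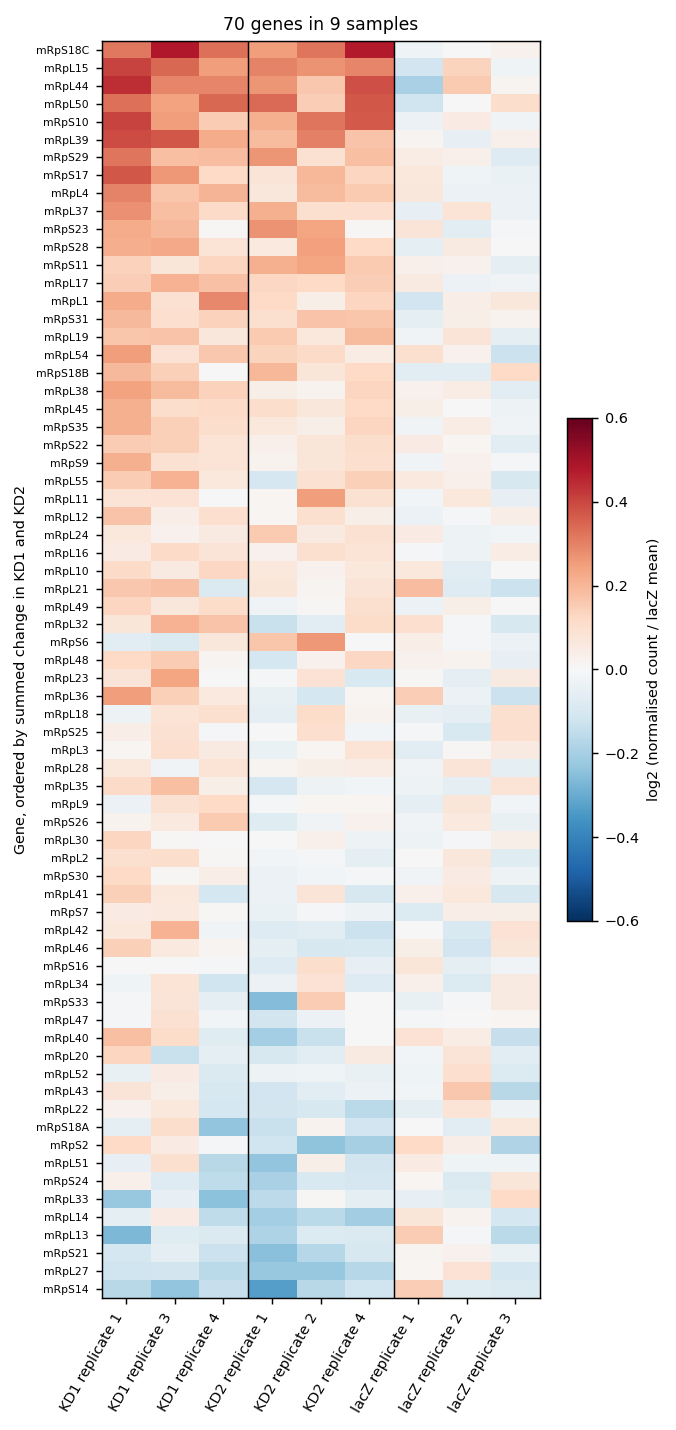
Log2 ratio of the normalised count of each sample to the lacZ mean (colour, red above and blue below) for the 70 genes (rows, ordered by summed change) in the KD1, KD2 and lacZ samples (columns). The top rows, led by mRpS18C, are red in all 6 knock-down samples, and most rows further down are paler. In the bottom rows, mRpS21, mRpL27 and mRpS14, all 6 knock-down samples lie below all lacZ samples.

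The 6 genes called in both knock-downs came from both subunits, mRpS10 and mRpS18C from the small and mRpL15, mRpL39, mRpL44 and mRpL50 from the large one. In each of them all 6 knock-down samples lay above all 3 lacZ samples.

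mRpS18C (chromosome 3R, 30423974 to 30424556, plus strand) codes for a homologue of the bacterial small subunit protein S18. It had 291, 326 and 294 normalised read counts in KD1 samples, 278, 292 and 325 in KD2 samples, and 230, 234 and 238 in lacZ samples. The lacZ values were tightly grouped and well below the lowest knock-down value. This amounted to a log2 fold change of 0.38 ± 0.11 (SE) for KD1 over lacZ (DESeq2 adjusted p = 0.00451) and 0.35 ± 0.11 for KD2 over lacZ (DESeq2 adjusted p = 0.00886). In KD1 this is 1.3-fold, at the limit of the fold-change threshold. The KD1 call was lost when KD1 replicate 3 was left out (adjusted p = 0.0632), and the KD2 call when KD2 replicate 4 (0.125) or lacZ replicate 1 (0.0612) was. Flies have 2 further members of this family. mRpS18A, whose mammalian counterpart sits in the large subunit, had log2 fold changes of -0.052 in KD1 and -0.073 in KD2, and mRpS18B of 0.12 and 0.13, with adjusted p-values of 0.34 or more, so the call in this family was made for mRpS18C alone. The difference between the family members was not tested.

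mRpL15 (3L, 20435110 to 20436209, minus strand), a homologue of a bacterial large subunit protein, had 607, 583 and 546 normalised read counts in KD1 samples, 565, 553 and 562 in KD2 samples, and 423, 503 and 450 in lacZ samples. The KD2 samples agreed closely with each other, and the lacZ samples were the more scattered. Its log2 fold change was 0.33 ± 0.087 in KD1 (DESeq2 adjusted p = 0.00128) and 0.29 ± 0.087 in KD2 (0.0070), and the KD2 call was lost without lacZ replicate 1 (0.107) or lacZ replicate 3 (0.0567).

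mRpL39 and mRpL44 are proteins without a bacterial homologue in the ribosome. mRpL39 (3L, 14997981 to 14999666, minus strand), which in mammals resembles a tRNA synthetase, had 945, 934 and 843 normalised read counts in KD1 samples, 824, 890 and 811 in KD2 samples, and 730, 699 and 736 in lacZ samples. KD1 replicate 4 was the lowest KD1 sample and lay within the range of the KD2 samples. The log2 fold change was 0.33 ± 0.074 in KD1, with the smallest DESeq2 adjusted p of the 70 genes (0.000124), and 0.22 ± 0.074 in KD2 (0.0164). In KD2 the call was lost without KD2 replicate 2 (0.0972), lacZ replicate 1 (0.0615), lacZ replicate 2 (0.0761) or lacZ replicate 3 (0.0545).

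mRpL44 (3R, 5469463 to 5470636, minus strand) is related to RNase III enzymes. It had 984, 886 and 886 normalised read counts in KD1 samples, 868, 808 and 946 in KD2 samples, and 632, 805 and 731 in lacZ samples. The lowest KD2 value and the highest lacZ value nearly touched. Its log2 fold change was 0.35 ± 0.091 in KD1 (DESeq2 adjusted p = 0.00172) and 0.27 ± 0.092 in KD2 (0.0161), and the KD2 call was lost without KD2 replicate 4 (0.153), lacZ replicate 1 (0.190) or lacZ replicate 3 (0.0514).

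mRpL50 (3L, 7243080 to 7243933, minus strand), a further large subunit protein without a bacterial homologue, had 433, 408 and 439 normalised read counts in KD1 samples, 437, 381 and 447 in KD2 samples, and 317, 346 and 372 in lacZ samples. KD2 replicate 2 stood nearest to the lacZ values. The log2 fold change was 0.31 ± 0.098 in KD1 (DESeq2 adjusted p = 0.0116) and 0.29 ± 0.098 in KD2 (0.0165). The KD1 call was lost without KD1 replicate 1 (0.0805), KD1 replicate 4 (0.0777) or lacZ replicate 1 (0.138), and the KD2 call without KD2 replicate 1 (0.108), KD2 replicate 4 (0.141) or lacZ replicate 1 (0.163).

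mRpS10 (3R, 15229665 to 15230516, plus strand) codes for a homologue of a protein in the head of the bacterial small subunit. It had 456, 410 and 382 normalised read counts in KD1 samples, 398, 430 and 444 in KD2 samples, and 336, 356 and 340 in lacZ samples, with the lacZ samples close together and KD1 spread most widely. Its log2 fold change was 0.28 ± 0.097 in KD1 (DESeq2 adjusted p = 0.0256) and 0.30 ± 0.097 in KD2 (0.0119). The KD1 call was lost without KD1 replicate 1 (0.266), KD1 replicate 3 (0.0680), lacZ replicate 1 (0.133) or lacZ replicate 3 (0.120), and the KD2 call without KD2 replicate 4 (0.105), lacZ replicate 1 (0.0791) or lacZ replicate 3 (0.0701).

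**Figure D4:**
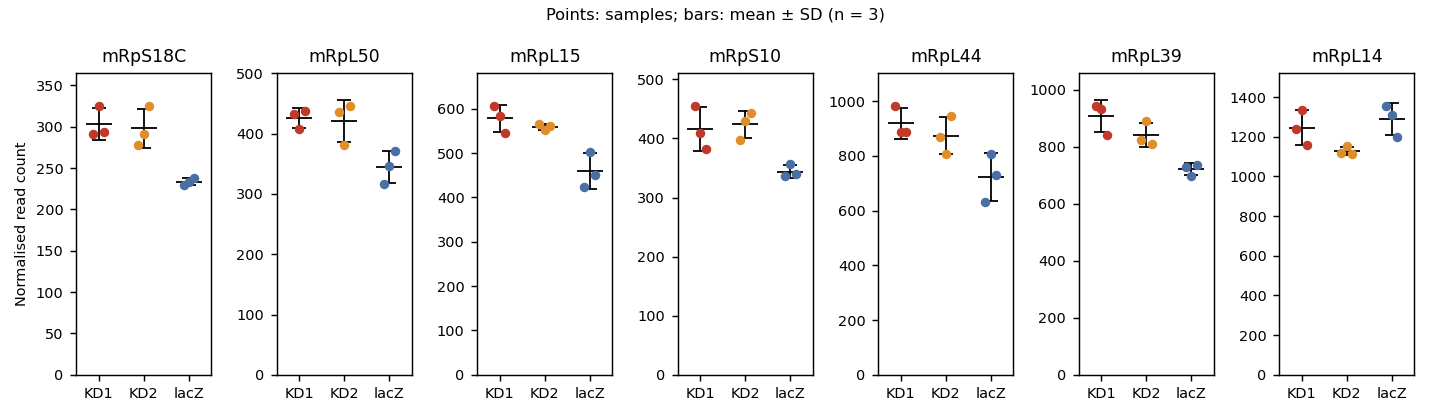
Normalised read counts (y axis, from 0) of the 6 genes called in both knock-downs and of mRpL14, with 1 point per sample and bars for the mean ± SD (n = 3 in each group). In the first 6 panels all KD1 and KD2 points lie above all lacZ points, and in the mRpL14 panel the KD2 points lie below them.

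A further 7 genes were called by DESeq2 in KD1 but not in KD2. Apart from mRpL45, they lie outside the rule for named genes and are named after their values were seen. They were mRpS17, mRpS29, mRpL4, mRpL38, mRpL17, mRpS35 and mRpL45, with log2 fold changes in KD1 of 0.26 for mRpS17 at the top and 0.14 for mRpL45 at the bottom. All 7 had positive values in KD2 as well, between 0.061 for mRpL38 and 0.18 for mRpS29. mRpS29, a GTP-binding protein known in mammals as a mediator of cell death, had 928, 843 and 845 normalised read counts in KD1 samples, 894, 791 and 843 in KD2 samples, and 765, 760 and 704 in lacZ samples. Its DESeq2 adjusted p was 0.0160 in KD1 and 0.0689 in KD2, where edgeR called it (adjusted p = 0.0421), and all KD2 samples lay above all lacZ samples. mRpL45, among the most abundant, had 2078, 1930 and 1942 in KD1 samples, 1933, 1881 and 1951 in KD2 samples, and 1838, 1791 and 1755 in lacZ samples, with an adjusted p of 0.0435 in KD1 that was lost in 8 of the 9 fits that left out 1 sample (all but that without KD2 replicate 2). A call in 1 knock-down and not in the other does not show that they differ.

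By DESeq2, mRpL14 was the member that fell, in KD2, and edgeR called mRpL14 and mRpL27 there. This homologue of a core protein of the bacterial large subunit (X, 2343997 to 2344649, minus strand) had 1120, 1151 and 1114 normalised read counts in KD2 samples, 1241, 1335 and 1158 in KD1 samples, and 1357, 1310 and 1200 in lacZ samples. The KD2 values lay below all the others, and the KD1 and lacZ values overlapped. Its log2 fold change was -0.19 ± 0.071 in KD2 (DESeq2 adjusted p = 0.0306, edgeR adjusted p = 0.0300) and -0.050 ± 0.070 in KD1 (0.678). The KD2 call was lost without KD1 replicate 1 (0.0523), KD2 replicate 1 (0.114), KD2 replicate 4 (0.137), lacZ replicate 1 (0.226) or lacZ replicate 2 (0.0787), and in a fit of KD2 and lacZ samples only (0.0508).

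The most negative values of the 70 genes did not pass by DESeq2. mRpS14, which shares exon bases with a neighbour on each strand, had a log2 fold change of -0.18 ± 0.093 in KD1 and -0.21 ± 0.093 in KD2 (DESeq2 adjusted p = 0.162 and 0.0961, edgeR 0.107 and 0.0615). mRpL27 had values of -0.13 ± 0.089 in KD1 and -0.21 ± 0.089 in KD2 (DESeq2 adjusted p = 0.314 and 0.0681), and edgeR called it in KD2 (adjusted p = 0.0264) but not in KD1 (0.169). For both, all knock-down samples lay below all lacZ samples.

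**Figure D5:**
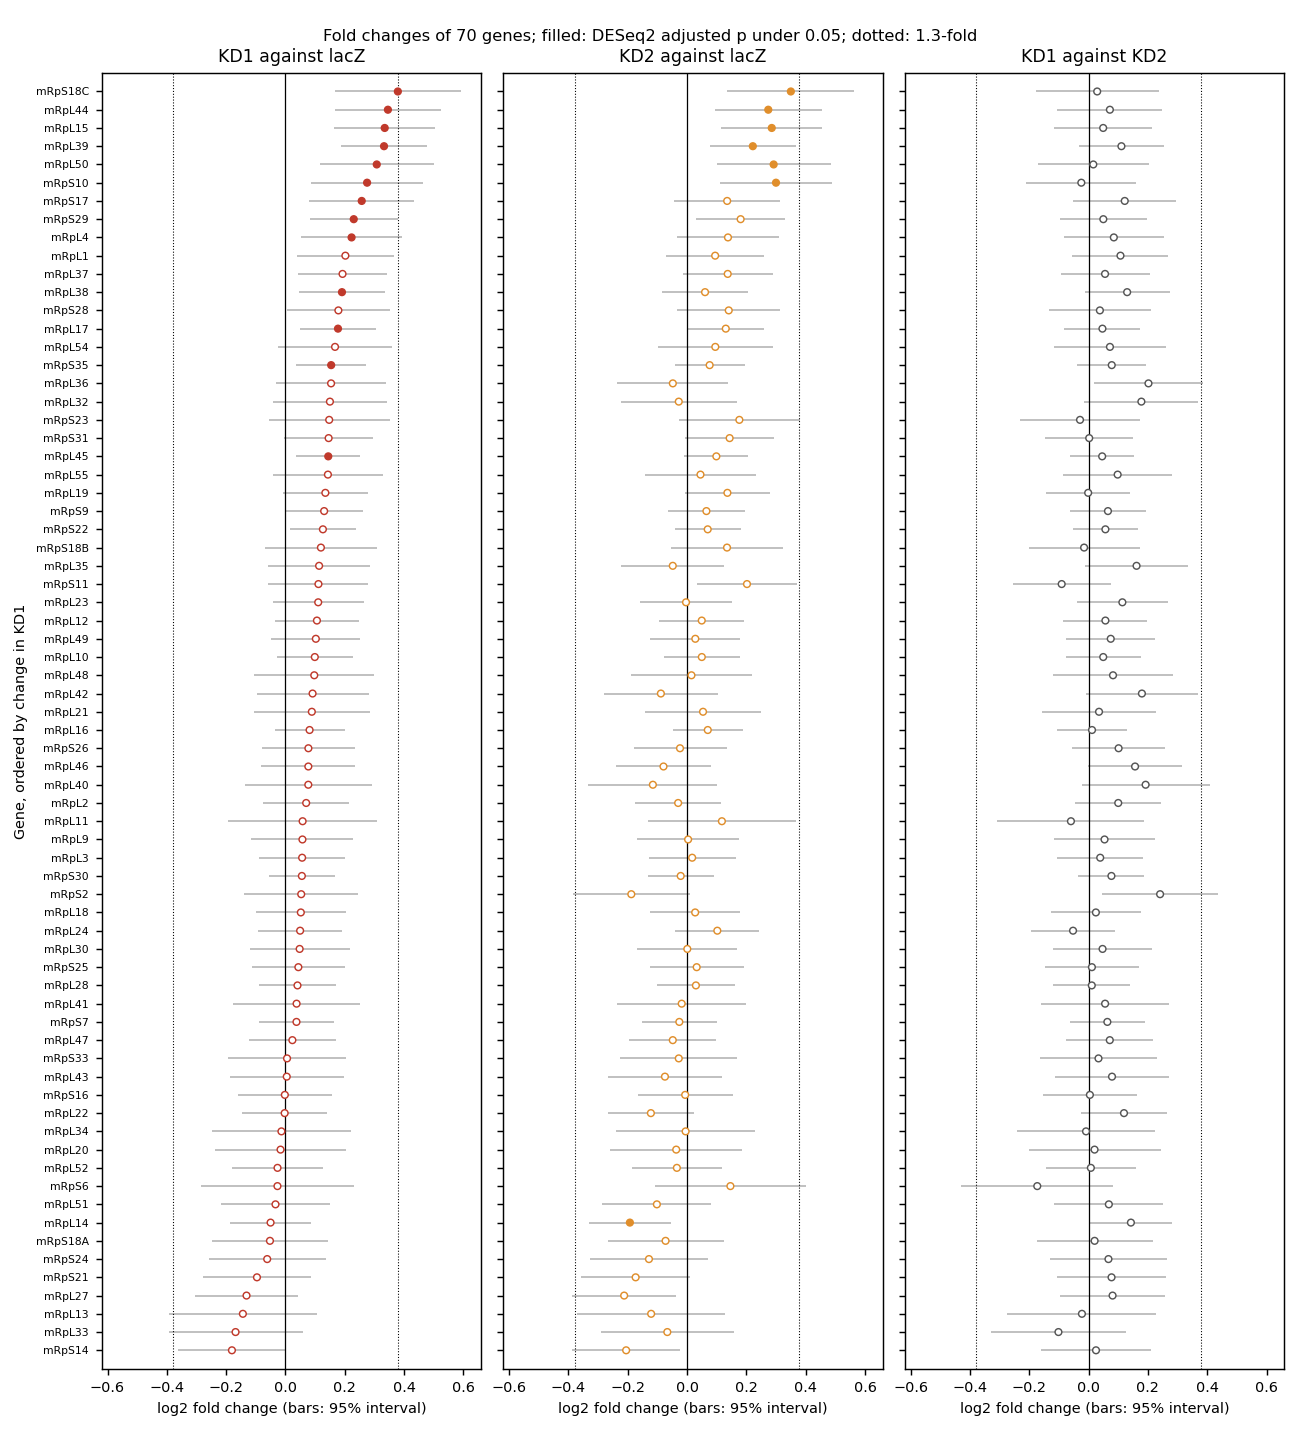
Log2 fold change with its 95% interval (x axis) for the 70 genes (y axis, ordered by the change in KD1) in KD1 against lacZ, KD2 against lacZ and KD1 against KD2. Filled points have a DESeq2 adjusted p under 0.05 (13 in KD1, 7 in KD2 and 0 in KD1 against KD2), and dotted lines mark a 1.3-fold change.

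The genes were divided by subunit as given in the symbol, although the mammalian counterparts of mRpS18A and mRpS30 sit in the large subunit. The median log2 fold change of the 46 mRpL genes was 0.085 in KD1 (8 rose) and 0.016 in KD2 (4 rose and 1 fell). That of the 24 mRpS genes was 0.094 in KD1 (5 rose) and 0.067 in KD2 (2 rose). The genes were also divided by ancestry after the mammalian nomenclature. The 27 classed there as specific to mitochondria had medians of 0.10 in KD1 (7 rose) and 0.032 in KD2 (3 rose). This class includes mRpS18A and mRpS18B, although they belong to the S18 family. The 43 classed as bacterial homologues had medians of 0.058 in KD1 (6 rose) and 0.017 in KD2 (3 rose and 1 fell). Over all genes 9.71% rose in KD1, and 11.3% rose and 12.3% fell in KD2. The shares that rose in KD1 were 17.4% of the mRpL and 20.8% of the mRpS genes, above that of all genes, and in KD2 they were 8.7% and 8.33%, below it. The ranges of the classes overlapped in both divisions, and their difference was not tested.

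The 2 knock-downs were also set against each other. Of the 70 genes, 59 were higher in KD1 than in KD2 by point estimate, with a median log2 fold change of 0.055 (KD1 over KD2), against 0.0027 over all genes. By DESeq2, 0 of the 70 genes had an adjusted p under 0.05, as did 0.162% of all genes, but 67 of the 70 received no adjusted p because independent filtering set them aside. By edgeR 0 passed either, with a smallest adjusted p of 0.466. At an unadjusted p under 0.05 there were 3 by DESeq2 (4.29%), all higher in KD1. By the same test 1.57% of all genes were higher and 3.62% lower. At this limit edgeR gave 9 of the 70 genes. Its share over all genes is not reported here, so the 9 cannot be set against it. All KD1 samples lay above all KD2 samples for 11 genes (15.7%) and below them for 1 (1.43%), against 6.55% and 7.51% of all genes. mRpS2, a small subunit protein with a bacterial homologue, had 414, 396 and 380 normalised read counts in KD1 samples and 352, 323 and 333 in KD2 samples, which did not overlap, with 415, 393 and 337 in lacZ samples. Its log2 fold change was 0.24 ± 0.10 (DESeq2 unadjusted p = 0.0156, edgeR adjusted p = 0.466). mRpL36, a small protein of the large subunit, had 521, 483 and 456 in KD1 samples and 424, 406 and 441 in KD2 samples, with a log2 fold change of 0.20 ± 0.094 (DESeq2 unadjusted p = 0.0324, edgeR adjusted p = 0.523). The 95% interval of this difference stayed within 1.3-fold for 66 of the 70 genes (94.3%, against 80.7% of all genes). With the exon length correction the median fell to 0.018.

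Where exons of neighbouring genes overlap, reads can be lost or misassigned, and use of strand in counting is not stated. The partner fold changes given below do not show how many reads were lost. Of the 70 genes, 40 shared exon bases with a gene on the opposite strand, by a median of 54 bases, and mRpL13 and mRpS14 shared some with a gene on the same strand. Among the 6 genes called in both knock-downs, the partners that could be tested did not pass. CG15536, which overlaps 58 bases of mRpS18C, had log2 fold changes of -0.12 in KD1 and -0.085 in KD2, Neos (60 bases of mRpL50) 0.058 in both, and POLDIP2 (104 bases of mRpL44) 0.0091 and 0.028. The partner of mRpL39 was below the abundance limit, the partner of mRpL15 was not analysed here, and mRpS10 had no such overlap.

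A further 4 proteins of the mitochondrial ribosome carry other names. CRIF, whose mammalian counterpart sits at the exit of the peptide tunnel, rose in both knock-downs, with 861, 843 and 914 normalised read counts in KD1 samples, 834, 775 and 866 in KD2 samples, and 708, 715 and 715 in lacZ samples. Its log2 fold change was 0.29 ± 0.072 in KD1 (DESeq2 adjusted p = 0.000672) and 0.21 ± 0.072 in KD2 (0.0190). The samples of each knock-down lay above all lacZ samples, and those of KD1 and KD2 overlapped. The small subunit genes tko and bonsai did not pass the test, with log2 fold changes of -0.036 and 0.13 in KD1 and -0.044 and 0.12 in KD2, nor did CG6094, a release-factor relative, with 0.16 and 0.087.

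The other genes of mitochondrial translation gave a mixed picture by DESeq2, in lists of so few genes that 1 call is a large share. The shares over all genes were again 9.71% risen and 11.5% fallen in KD1, and 11.3% and 12.3% in KD2. Of 10 translation factors above the abundance limit, 2 (20.0%) rose in KD1 and 1 (10.0%) in KD2. The elongation factor mEFTu1, which brings aminoacyl-tRNA to the ribosome, rose in both (log2 fold change 0.26 ± 0.055 in KD1 and 0.25 ± 0.055 in KD2), and its exchange factor mEFTs rose in KD1 (0.23 ± 0.079), with 0.19 ± 0.079 in KD2 (DESeq2 adjusted p = 0.0565, edgeR adjusted p = 0.0336). Mitochondrial aminoacyl-tRNA synthetases charge the tRNAs. Of 15 genes in this list, which includes the synthetase relative Slimp, 3 (20.0%) rose and 1 (6.67%) fell in each knock-down. ValRS-m had the largest rise, with 176, 173 and 173 normalised read counts in KD1 samples, 169, 187 and 186 in KD2 samples, and 115.4, 141 and 124 in lacZ samples. MetRS-m fell, with 93.2, 107 and 121 in KD1 samples, 112, 92.8 and 97.6 in KD2 samples, and 188, 182 and 147 in lacZ samples (log2 fold change -0.69 ± 0.16 in KD1 and -0.77 ± 0.16 in KD2). Of 11 genes listed for the replication and expression of mitochondrial DNA or for mitochondrial biogenesis, 4 (36.4%) rose in KD1 and 3 (27.3%) in KD2. These included PolG1, the catalytic subunit of the mitochondrial DNA polymerase (0.30 in KD1 and 0.44 in KD2), mtSSB, which coats single-stranded mitochondrial DNA (0.23 in both), and clu, an RNA-binding protein of mitochondrial biogenesis (0.39 and 0.46).

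Neither of the rRNAs that these proteins bind rose. mt:lrRNA took 0.854%, 1.21% and 1.13% of the counts in KD1 samples, 1.07%, 1.53% and 1.3% in KD2 samples, and 1.71%, 0.960% and 1.19% in lacZ samples, so the groups overlapped. mt:srRNA had far fewer reads, with 228, 212 and 166 normalised read counts in KD1 samples, 157, 174 and 174 in KD2 samples, and 234, 182 and 250 in lacZ samples. It fell in KD2 (log2 fold change -0.40 ± 0.15, DESeq2 adjusted p = 0.0321), a call that was lost without KD2 replicate 1 (0.158), KD2 replicate 4 (0.0778), lacZ replicate 1 (0.159) or lacZ replicate 3 (0.237). The libraries were made from polyadenylated RNA, so these values do not give the total amount of either rRNA. Of the 15 mitochondrially encoded genes, 0 passed in KD1 by DESeq2 or edgeR (2 had an unadjusted p under 0.05), and 2 fell in KD2, the other being mt:ND2, a subunit of complex I (-0.75 ± 0.23).

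Compared with related gene groups, the 80 cytosolic ribosomal protein genes had a median log2 fold change of 0.054 in KD1 (13 rose, or 16.2%, and 2 fell) and 0.037 in KD2 (11 rose, or 13.8%, and 3 fell), beside the 9.71% and 11.3% of all genes that rose. The 61 nuclear genes of the respiratory chain code for products that work beside the proteins made by the mitochondrial ribosome. Their medians were -0.0029 in KD1 and -0.064 in KD2. In KD1 0 rose and 0 fell by DESeq2, 0 passed by edgeR, and 7 had a DESeq2 unadjusted p under 0.05. At that unadjusted limit 15.1% of all genes rose and 16.6% fell. In KD2 1 (1.64%) rose and 5 (8.2%) fell, below the 11.3% and 12.3% of all genes. The median of the 61 genes in KD1 against KD2 was 0.062, with 54 of 61 values positive. This was close to the 0.055 of the 70 mitochondrial ribosomal protein genes. These are descriptions, and the difference between the groups was not tested.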

How the data were processed

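RNA sequencing of polyadenylated RNA from S2R+ cells was analysed in 9 samples (KD1, KD2 and lacZ, 3 each), grouped by their titles. The authors aligned reads to the BDGP6 genome with STAR (version 2.5.1b, per the submitters' processing notes), kept primary alignments and counted reads per gene with featureCounts (Subread 1.4.6-p2) and Ensembl 90 models. The deposited values are raw counts per gene, without normalisation. Symbols came from a FlyBase table, and positions and exon lengths from Ensembl 115 of the same assembly.

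Genes with a mean CPM above 1 were kept. All 9 samples entered a single DESeq2 model (version 1.42.0, run in R 4.3.3) with the group as factor and median-of-ratios size factors. Contrasts were tested with the Wald test, Benjamini-Hochberg adjustment over all genes kept and independent filtering at 0.1, following the study's methods. A gene rose or fell at an adjusted p under 0.05, and was past the threshold if its fold change also exceeded 1.3. Adjusted p-values are from DESeq2 unless edgeR (quasi-likelihood test, version 4.0.16) is named. The procedure was tested on simulated data. The precision of a value is limited by library totals of 13040608 to 15931035 counts and by 3 replicates.

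Named members were those past the threshold in KD1 or KD2, those called in the same direction in both, the 3 highest and 2 lowest per kilobase, the 2 with the smallest p in KD1 against KD2, and tko, bonsai, the mitochondrial rRNAs and Hrb98DE. The members, lists and rules were chosen with earlier results of these data known. Alternatives were other scalings, filters, thresholds and tests, an exon length correction, a replicate block and leaving out each sample.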

Additional observations from a re-analysis of the deposited data

How the results depend on the processing

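The titles number the replicates but do not say whether same-numbered samples belong together. Deviations of same-numbered samples from their group means correlated between -0.341 and 0.159 over 6 pairs, against -0.325 to 0.331 over 21 other pairs. With 3 samples per group, these correlations cannot decide whether same-numbered samples were handled together. With the replicate number as a block, 1 gene (mRpL39) rose in KD1 and 0 in KD2, against 13 and 7 calls without the block, and 0 genes were past the 1.3-fold threshold in KD1. The share of all genes that rose then was 2.94% in KD1 and 3.11% in KD2. With the exon length correction added to the block, the counts were again 1 and 0, with 0 past the threshold. The share of all genes that rose was then 3.24% in KD1 and 3.36% in KD2. Of the 6 genes called in both knock-downs, 0 kept both calls under the block, while all 6 stayed positive in both.

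The count of 13 in KD1 (18.6%, against 9.71% of all genes that rose) became 8 (11.4%, against 10.5%) with the exon length correction, 8 (11.4%, against 9.44%) with only the groups compared and 7 (10.0%, against 7.55%) with scaling by total counts, so the excess over all genes was smaller in these fits. It ranged from 4 to 10 (5.71% to 14.3%) when 1 sample was left out, where 5.17% to 11.1% of all genes rose. The 7 calls in KD2 ranged from 0 to 7 when 1 sample was left out. In those KD2 fits 0% to 8.57% of the 70 genes rose, where 6.43% to 12.4% of all genes did. The single gene past 1.3-fold in KD1 became 0 with the exon length correction and with the fold-change prior. The same held with a mean RPKM above 1 and with scaling by total counts. The count ranged from 0 to 2 when 1 sample was left out, where 1.69% to 2.89% of all genes rose past 1.3-fold. At a 1.2-fold threshold 6 rose and 0 fell in KD1, where 4.81% of all genes rose and 7.63% fell. At 1.5-fold the KD1 count was 0, where 0.878% of all genes rose and 3.0% fell. The 0 in KD2 ranged from 0 to 1 when 1 sample was left out, where 2.15% to 3.5% of all genes rose past 1.3-fold. At 1.2-fold 5 rose and 0 fell in KD2, where 5.74% of all genes rose and 8.14% fell. Scaling by total counts moved the median of the 70 genes to 0.056 in KD1 and -0.0058 in KD2, where the median of all genes was -0.029 and -0.030, and the exon length correction moved KD1 against KD2 to 0.018. The cause of these moves was not tested. All 6 genes kept both calls with TMM factors, edgeR, the exon length correction, the prior, the RPKM filter, no filter, no independent filtering and only the groups compared, and 5 did with scaling by total counts. Of the single genes named, mRpS6 in KD1 turned to 0.0065 with the block and ran from -0.074 to 0.0023 when 1 sample was left out. The same fits gave -0.026 to 0.12 for mRpS2 in KD1, -0.11 to 0.033 for mRpL36 in KD2, and -0.41 to 0.018 in KD1 and -0.11 to 0.31 in KD2 for mt:lrRNA, whose directions thus turned. The planned search for promoter motifs and its shorter window were not run.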
